A study of Mus musculus with 3 samples.

Results

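Integrins are the cell-surface receptors by which macrophages hold on to other cells and to the extracellular matrix. The set described here is 10 integrin genes of mouse macrophages, Itgam, Itgax, Itgal, Itgb2, Itga4, Itgb1, Itgav, Itgb5, Itga5 and Itga6, taken by name from the 55536 annotated genes of the tables, of which 22028 are protein-coding. All 10 symbols matched exactly 1 gene each. Their levels were read in 3 libraries of chromatin-bound RNA, depleted of ribosomal RNA. The cells were C57BL/6J macrophages grown from bone marrow and given 100 ng/ml lipid A, the TLR4-activating part of bacterial lipopolysaccharide, for 15 min. All 3 libraries carry this treatment, so they form 1 group, and the values are levels at this time with no unstimulated library set against them. The libraries are biological replicates 1, 2 and 3 by their labels but share 1 donor label. Their spread may therefore be smaller than that between animals.

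Each integrin is a pair of an alpha and a beta chain, and the chains are encoded by separate genes. The beta 2 chain, encoded by Itgb2, is restricted to leukocytes and pairs among others with the alpha chains of Itgal, Itgam and Itgax, which bind ICAMs, complement fragments and fibrinogen. The beta 1 chain of Itgb1 pairs among others with the alpha chains of Itga4, Itga5 and Itga6, receptors for VCAM-1 and fibronectin, for fibronectin, and for laminins. The alpha v chain of Itgav pairs with beta 1, beta 5 and other beta chains and binds vitronectin and related ligands. RNA bound to chromatin is mostly recently made and partly unspliced, so the levels below describe nuclear RNA of these genes, not receptor protein at the cell surface.

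Depth was 10974934 expected counts in replicate 1, made from 1 µg of starting RNA, 21376404 in replicate 2, from 250 ng, and 14376665 in replicate 3, from 500 ng. Expected counts are the authors' estimates of reads per gene, and TPM is the authors' level per length, scaled to 1000000 per library. The cells carried the marks of macrophages: all 11 macrophage markers, among them Csf1r and Adgre1, stood at 1 TPM or more in every library. In the gene table no neutrophil marker of 11, no T or NK cell marker of 8 and no B cell marker of 5 did so. Summed TPM was 695 to 1189 for the macrophage list, 1.55 to 2.51 for the neutrophil list, 0.08 to 0.13 for the T and NK cell list and 0.07 to 0.13 for the B cell list. The neutrophil genes Elane, Mpo and Ly6g and the T cell genes Cd3e and Cd3g had no counts in the gene table. The second quantification, a further deposited estimate of transcript levels, put 1 neutrophil marker and 2 T and NK cell markers at 1 TPM or more in all libraries: Cxcr2 at 3.13, 1.70 and 3.16 TPM, Cd3d at 16.7, 11.5 and 20.2 TPM and Cd8a at 5.05, 2.37 and 4.21 TPM. In the gene table these stood at no more than 0.02, 0.02 and 0.13 TPM in any library. Of 5 megakaryocyte and platelet markers 1, Pf4, passed in the gene table, at 9.73, 10.48 and 11.46 TPM. Of 7 endothelial and stromal markers 1, Kdr, passed there, at 3.94, 1.38 and 3.42 TPM. In the second quantification 3 of these 5 and 3 of these 7 markers passed. Their part in the integrin levels was not tested. Among 5 dendritic cell markers, which matter for Itgax, Zbtb46 reached 1.67, 0.71 and 1.59 TPM in the gene table. Flt3, Siglech, Xcr1 and Cd209a were each under 0.25 TPM in every library there. In the second quantification 2 of these 5 markers stood at 1 TPM or more in all libraries. These were Zbtb46, at 3.90, 1.95 and 3.31 TPM, and Siglech, at 3.06, 1.48 and 2.61 TPM. In bulk RNA, fewer cells of a type and less RNA per cell cannot be told apart.

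The integrin genes covered a wide range of levels. Of the 10, 9 stood at 1 TPM or more in all 3 libraries, where 42.5% of 21991 protein-coding symbols did so, and Itgal missed this limit in replicate 2. The median of the 10 genes was 20.7, 15.985 and 24.1 TPM in replicates 1, 2 and 3 (20.3 ± 4.08 TPM, SD, n = 3), against 8.92 TPM for the 10245 protein-coding genes with a mean of at least 1 TPM. By mean level the order was Itga4, Itga5, Itgb2, Itgb1, Itga6, Itgav, Itgam, Itgb5, Itgax and Itgal. In this order 8 of the 9 neighbouring pairs kept the same order in each of the 3 libraries. The exception was Itgb2 and Itgb1, whose order changed in replicate 3. Itga4 alone took 45.3%, 28.1% and 37.1% of the summed TPM of the 10 genes in replicates 1, 2 and 3.

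**Figure D1:**
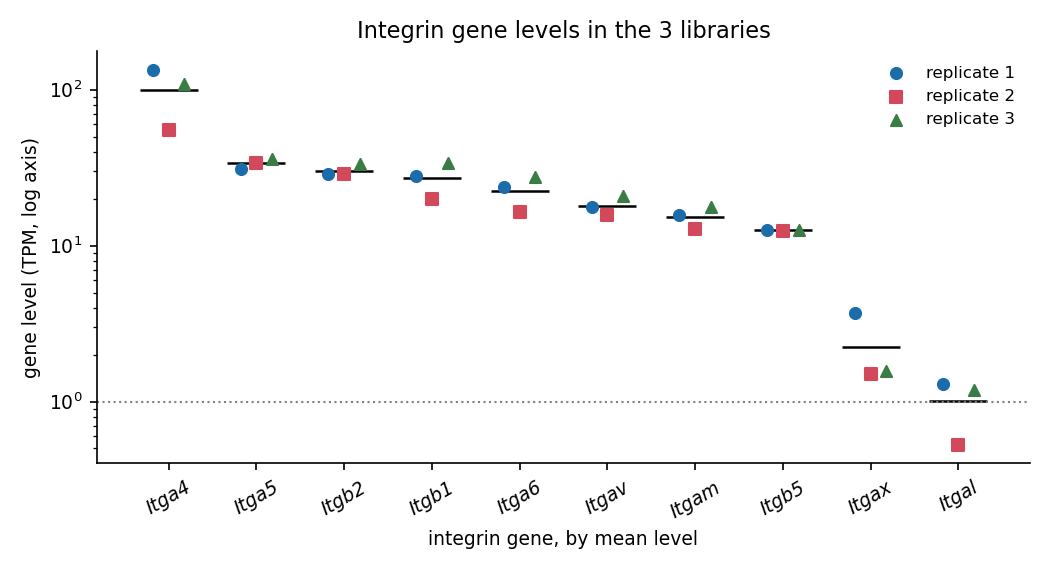
Levels of the 10 integrin genes in TPM on a log axis, with a point for each of the 3 libraries, a black bar at their mean and a dotted line at 1 TPM. Itga4 is highest in every library, at 55.3 to 135 TPM, 7 genes lie between 12.45 and 36.1 TPM, and Itgax and Itgal lie at 0.53 to 3.68 TPM.

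Of the beta 2 family, the shared beta chain gene had the most RNA. Itgb2, on chromosome 10 from 77530252 to 77565708, stood at 28.9, 28.6 and 33.2 TPM in replicates 1, 2 and 3 (30.2 ± 2.58 TPM, SD, n = 3), from 991, 2254 and 1322 expected counts. These 3 values lie close together, and they place Itgb2 above 91.8% of protein-coding genes. Itgam, which encodes the alpha M chain known as CD11b of the complement receptor Mac-1, stood at 15.6, 12.7 and 17.7 TPM (15.4 ± 2.50 TPM, SD, n = 3). Its range lies wholly below that of Itgb2. Itgax, which encodes the alpha X chain CD11c, a common marker of dendritic cells that macrophages also carry, stood at 3.68, 1.5 and 1.58 TPM (2.25 ± 1.24 TPM, SD, n = 3). Replicate 1 was high and the other libraries lay close to each other. Its expected counts were 76, 146 and 76, and the effective length by which the authors' TPM divides was 1.52 kb in replicate 1, against 3.07 kb in replicates 2 and 3. Over its coding isoforms alone Itgax stood at 1.76, 1.4 and 1.34 TPM, with replicate 1 much less apart. Itgal, which encodes the alpha L chain CD11a of the lymphocyte receptor LFA-1, stood at 1.29, 0.53 and 1.19 TPM (1.00 ± 0.413 TPM, SD, n = 3), the lowest level of the 10 genes. It rested on 78, 82 and 88 expected counts, with exact 95% Poisson intervals of 61.7 to 97.3, 65.2 to 102 and 70.6 to 108, so it was above the floor of 3 counts in every library.

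Itgam made up most of the alpha chain RNA of this family, at 75.9%, 86.2% and 86.5% of the summed TPM of Itgam, Itgax and Itgal in replicates 1, 2 and 3. Counted over protein-coding isoforms only, these 3 alpha chain genes together reached 0.654, 0.613 and 0.655 of the TPM of Itgb2. Over all isoforms the ratio was 0.712, 0.516 and 0.616 (0.615 ± 0.0981, SD, n = 3), so the beta chain gene had more RNA than these 3 alpha chain genes combined in each library.

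The alpha chain genes of the beta 2 family lie on chromosome 7, on the plus strand, and differed in level. In the GENCODE M21 annotation of mm10, Itgal spans 127296260 to 127335138, Itgam 128062640 to 128118491 and Itgax 128129547 to 128150657. Itgal lies apart, since Itgam starts 728 kb after its end. Itgax starts 11.1 kb after the end of Itgam, and Itgad, the gene of the alpha D chain, starts 3.72 kb after the end of Itgax. Along the row from Itgam to Itgad the level was 0.00, 0.19 and 0.05 TPM at Itgad, against 3.68, 1.5 and 1.58 TPM at Itgax and 15.6, 12.7 and 17.7 TPM at Itgam. Itgam exceeded Itgax 4.25 times in replicate 1, 8.49 times in replicate 2 and 11.2 times in replicate 3. Itgad had 0, 10 and 3 expected counts, which is at or under the floor in replicates 1 and 3. In the second quantification Itgad was at 2.83, 2.73 and 3.32 TPM and Itgax at 7.27, 3.15 and 2.41 TPM, so Itgad was there above Itgax in replicate 3, and its low level held in the gene table only. The annotated protein-coding gene Gm49368 overlaps Itgam on the same strand and held 3, 14.9 and 4.07 expected counts, against 791, 1579 and 1044 for Itgam itself.

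The 250 bases before the RefSeq start of Itgam, of its low neighbour Itgax and of Itga4, the highest gene, are printed to show the sequence at which these genes begin. The letters GAGGAA, the core of a site for the myeloid factor PU.1, were searched on both strands and are in capitals. The windows are on the plus strand of GRCm38.p6, at chr7:128062390-128062639 for Itgam, chr7:128129300-128129549 for Itgax and chr2:79255176-79255425 for Itga4.
Itgam: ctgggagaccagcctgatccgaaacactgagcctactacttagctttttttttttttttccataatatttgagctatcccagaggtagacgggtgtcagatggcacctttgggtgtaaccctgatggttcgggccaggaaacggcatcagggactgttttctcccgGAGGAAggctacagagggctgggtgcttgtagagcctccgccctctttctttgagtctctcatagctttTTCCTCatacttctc
Itgax: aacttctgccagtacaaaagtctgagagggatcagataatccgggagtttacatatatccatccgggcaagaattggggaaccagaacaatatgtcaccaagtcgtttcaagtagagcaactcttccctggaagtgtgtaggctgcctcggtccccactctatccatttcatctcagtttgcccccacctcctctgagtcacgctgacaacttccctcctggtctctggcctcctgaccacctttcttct
Itga4: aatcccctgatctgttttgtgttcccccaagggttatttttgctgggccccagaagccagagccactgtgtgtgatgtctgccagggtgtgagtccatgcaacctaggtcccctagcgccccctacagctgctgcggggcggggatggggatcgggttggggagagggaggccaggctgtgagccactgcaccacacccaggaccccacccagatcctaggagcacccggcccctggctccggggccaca
The Itgam window held 2 matches, and the windows of Itgax and Itga4 held none. Of the 7 genes with an entry in the RefSeq promoter table, 4 held GAGGAA, against 23.3% of the 32851 windows of the same length in the whole table. The G+C content was 49.6% before Itgam, 50% before Itgax and 64% before Itga4. A match is only a description of the letters.

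The alpha chain genes that pair with beta 1, Itga4, Itga5 and Itga6, each stood above Itgam, Itgax and Itgal in every library over all isoforms of the gene table, while the beta chain genes lay close together. Over protein-coding isoforms Itga6, at 7.89, 8.24 and 11.08 TPM, was below Itgam, at 13.85, 12.74 and 15.67 TPM, in each library, and Itga5 was below Itgam in replicate 1. In the second quantification Itga6 was below Itgam in replicate 2, at 19.8 and 24.0 TPM. Itgb1 itself, on chromosome 8 from 128685654 to 128733200, stood at 28.2, 19.8 and 33.6 TPM in replicates 1, 2 and 3 (27.2 ± 6.99 TPM, SD, n = 3). Replicate 2 was low and replicate 3 high, and the range of Itgb1 overlaps that of Itgb2. Itgb1 was at 0.846, 0.675 and 0.852 times the TPM of Itgb2 over protein-coding isoforms (0.791 ± 0.101, SD, n = 3), and at 0.973, 0.691 and 1.01 times over all isoforms (0.892 ± 0.175, SD, n = 3). Itgb2 was thus the higher in each library over coding isoforms, while over all isoforms the order was not resolved. Itga5, the alpha 5 chain of the classical fibronectin receptor, on chromosome 15 from 103344286 to 103366763 on the minus strand, stood at 30.9, 33.9 and 36.1 TPM (33.7 ± 2.63 TPM, SD, n = 3). It was second in the order in each library. Itga6, the alpha 6 chain of a laminin receptor, on chromosome 2 from 71745616 to 71858416, stood at 23.8, 16.4 and 27.4 TPM (22.5 ± 5.64 TPM, SD, n = 3), with replicate 2 lowest. Summed, Itga4, Itga5 and Itga6 reached 2.58, 2.86 and 2.74 times the TPM of Itgb1 over protein-coding isoforms only, and 6.73, 5.34 and 5.12 times over all isoforms.

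Itga4, which encodes the alpha 4 chain of VLA-4, a receptor that leukocytes use to leave the blood, was the highest integrin gene and among the most variable. It lies on chromosome 2 from 79255426 to 79333123 and stood at 135, 55.3 and 109 TPM in replicates 1, 2 and 3 (99.5 ± 40.5 TPM, SD, n = 3). Replicate 2 was the lowest library, yet its value exceeded every value of the other 9 genes. By mean level Itga4 ranked 334 among protein-coding genes, above 98.5% of them. It exceeded Itga5 by 4.36, 1.63 and 3.01 times in the 3 libraries. Its expected counts were 7291, 6987 and 7078, nearly level while the depth of replicate 2 was the largest.

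This rank depended on which isoforms were counted. Itga4 has 5 annotated isoforms, of which Itga4-201, with 28 exons, is the only one annotated as protein coding. Itga4-201 stood at 35.4, 15.4 and 31.7 TPM in replicates 1, 2 and 3 (27.5 ± 10.6 TPM, SD, n = 3), which was 26.2%, 27.8% and 29.2% of the gene's TPM. The remaining 72.2 ± 1.48% (SD, n = 3) lay on 4 isoforms annotated as processed transcripts, all of which end before the middle of the gene. Itga4-205 has 2 exons, ends 3.12% of the way along the gene, and has 1835 of its 2314 bases outside the exons of the coding isoform; it stood at 41.9, 8.23 and 29.7 TPM. Itga4-204 ends 23.9% of the way along, with 864 of 1508 bases outside coding exons, and stood at 25.6, 5.56 and 18.7 TPM. Itga4-202 ends 48.3% of the way along, with 1438 of 2936 bases outside coding exons, and stood at 22.3, 7.73 and 17.6 TPM. In these 3 models, which hold much sequence outside the exons of the coding isoform, replicate 2 was lowest each time. Itga4-203, with only 192 of 1826 bases outside coding exons, went the other way, at 9.64, 18.4 and 10.9 TPM, with replicate 2 highest. In the second quantification Itga4-203 was at 39.5, 29.3 and 29.8 TPM, with replicate 2 lowest, so its opposite pattern was seen in 1 of the tables only. In the shares of the authors' IsoPct it took 33.2% of the gene in replicate 2, against 7.15% and 10.1% in replicates 1 and 3.

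**Figure D2:**
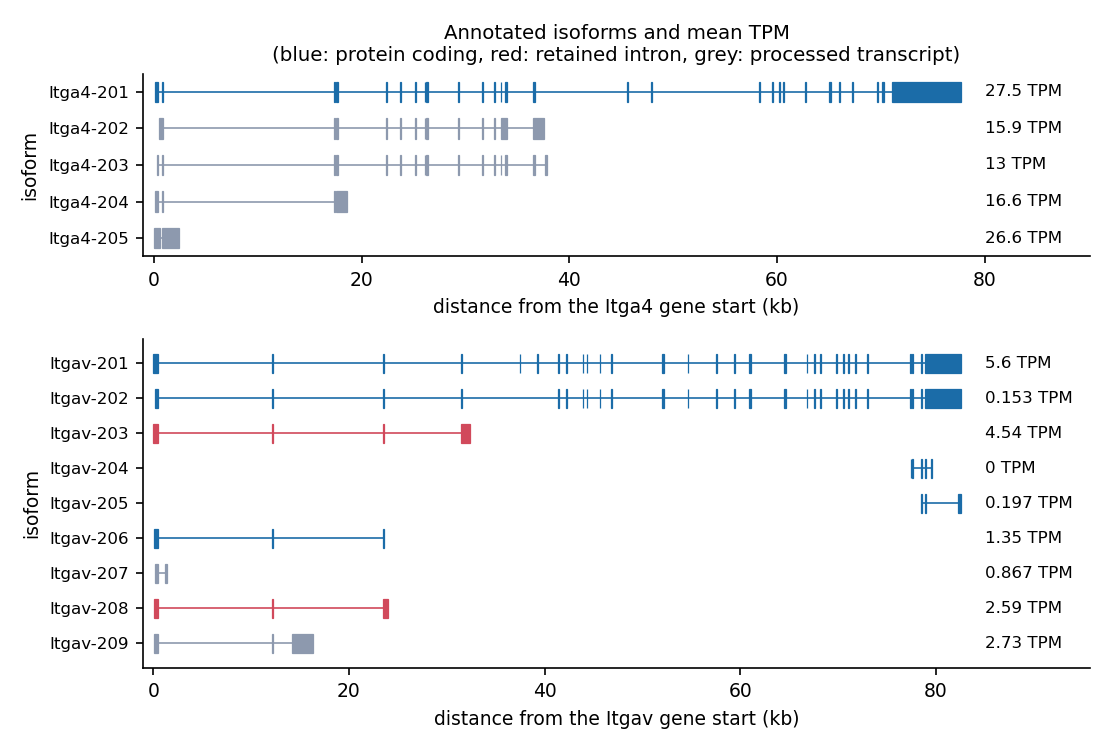
Exons (boxes) of the annotated isoforms of Itga4 and Itgav by distance from the gene start in kb, with the mean TPM over the 3 libraries at the right. The 4 processed transcripts of Itga4, at 13.0 to 26.6 TPM, all lie in the first part of the gene, as do the retained-intron isoforms of Itgav at 4.54 and 2.59 TPM.

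With protein-coding isoforms only, the top of the order was not resolved. Itga4 averaged 27.5 ± 10.6 TPM and Itgb2 25.9 ± 1.94 TPM (SD, n = 3 each). Itga4 stood at 1.37, 0.643 and 1.14 times the level of Itgb2 in replicates 1, 2 and 3, so their order changed in replicate 2. Of the 9 neighbouring pairs on this scale, 6 kept 1 order in all libraries. Itgax, at 1.5 ± 0.227 TPM, and Itgal, at 1.01 ± 0.415 TPM (SD, n = 3 each), remained the lowest.

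**Figure D3:**
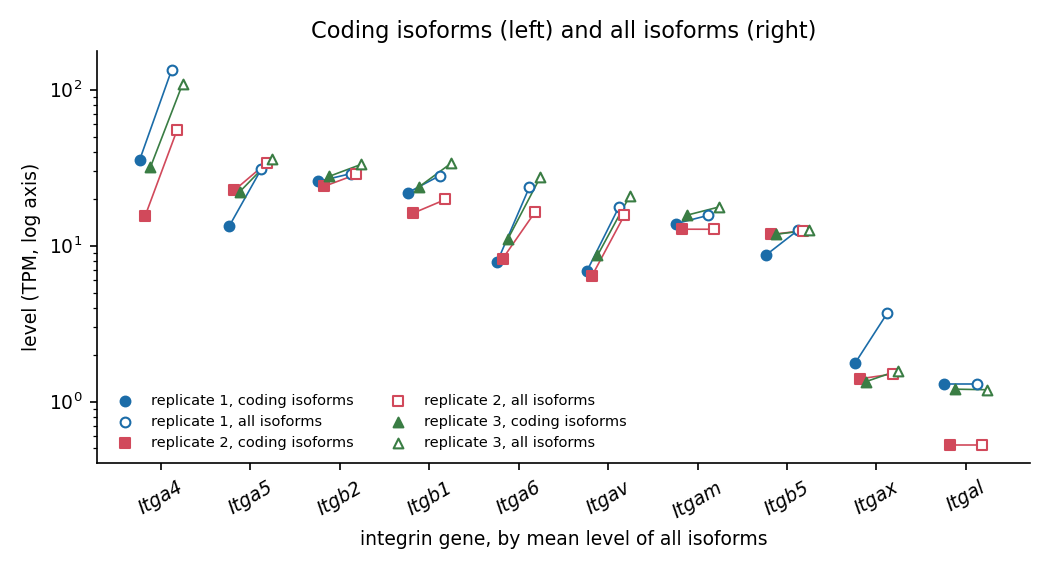
Level of each integrin gene in TPM on a log axis, with protein-coding isoforms only (filled, left) joined to all isoforms (open, right) in each library. Itga4 drops to 15.4 to 35.4 TPM over its coding isoform, into the range of Itgb2 at 23.9 to 27.8 TPM, while Itgal hardly moves.

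Itgav and Itgb5, whose products form the vitronectin receptor alpha v beta 5, were at moderate levels. Itgav, on chromosome 2 from 83724397 to 83806916, stood at 17.7, 15.6 and 20.8 TPM in replicates 1, 2 and 3 (18.03 ± 2.60 TPM, SD, n = 3). Itgb5, on chromosome 16 from 33829665 to 33949338, stood at 12.52, 12.45 and 12.57 TPM (12.5 ± 0.0603 TPM, SD, n = 3). This was the smallest spread of the 10 genes in the gene table's TPM, but it held over all isoforms only. In replicate 1, 24.8% of the TPM of Itgb5 lay on Itgb5-204, a processed transcript of 265 bases with 3.26 expected counts. The effective length of the gene was 2.11 kb there, against 2.58 and 2.69 kb in replicates 2 and 3. Over all isoforms of the gene table Itgav exceeded Itgb5 by 1.41, 1.25 and 1.65 times. This order was reversed in each library both over protein-coding isoforms, with 6.83, 6.42 and 8.65 TPM for Itgav and 8.66, 11.79 and 11.82 TPM for Itgb5, and in the second quantification, with 27.5, 19.4 and 24.1 TPM for Itgav and 38.0, 29.4 and 44.1 TPM for Itgb5. The order of these genes thus depended on the table and on the isoforms counted. Opposite Itgav lie the non-coding transcript Gm13684, with 71.1, 129 and 77.1 expected counts, and the pseudogene Dnmt3l-ps1, with 46, 61 and 41. The sources used here do not state whether counting used strand, so these genes and Itgav may share some reads. The same holds for Itga4 and Cerkl, a gene on its opposite strand with 39.5, 49.2 and 45.5 expected counts, beside 7291, 6987 and 7078 for Itga4.

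The share of RNA on isoforms not annotated as protein coding set the integrin genes apart from each other. In the gene table's isoform values it was 50% or more in the mean for 3 of the 10 genes, Itga4, Itgav and Itga6, and 53.8% of 8554 expressed protein-coding genes with such isoforms passed the same limit. The median share over the 10 genes was 41.5%, 17.2% and 22.9% in replicates 1, 2 and 3, against 55.5%, 50.2% and 52.2% over those 8554 genes. In Itgav 59.6 ± 1.63% lay on such isoforms and in Itga6 58.7 ± 8.66%, compared with 14.4 ± 3.20% in Itgb2 and 7.64 ± 6.62% in Itgam (SD, n = 3 each). The beta 2 family gene Itgal had none of its TPM on its only such isoform. These shares differed in the second quantification, where Itgal had 0%, 64.4% and 49.7% on that isoform in replicates 1, 2 and 3, Itgam averaged 34.1 ± 6.11% and Itgb2 24.7 ± 2.04% (SD, n = 3 each). There Itga5 at 68.4%, Itgb5 at 59.4% and Itgb1 at 51.0% also passed 50% in the mean, beside Itga4, Itgav and Itga6. The shares of Itga4, at 70.8% to 73.8%, and of Itgav, at 58.4% to 61.4%, were steady, and their ranges do not overlap those of Itgb2, Itgb1 or Itgam. In expected counts rather than TPM these shares were smaller, at 34.6 ± 2.10% for Itga4, 29.0 ± 1.57% for Itgav and 33.7 ± 8.30% for Itga6 (SD, n = 3 each), since the non-coding models are shorter.

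Isoforms annotated as retaining an intron exist for 4 of the 10 genes, so their median share over all 10 was 0. Itgav had 36.7%, 43.0% and 39.4% of its TPM on 2 such isoforms in replicates 1, 2 and 3. Both start at the gene's first exon and end in its early introns. Itga5 had 57.1%, 33.04% and 38.4% on 2 short models in the middle of the gene, Itgb1 21.5%, 13.7% and 29.5% on 1, and Itgax 52.2%, 6.92% and 15.2% on 2. In expected counts these shares were far smaller, at 15.1% to 17.0% for Itgav, 3.04% to 8.70% for Itga5, 1.81% to 4.55% for Itgb1 and 0.685% to 6.00% for Itgax. The value of Itgax in replicate 1 rested mainly on Itgax-202, at 46.3% of the gene's TPM from 3.56 expected counts, while its full-length coding isoform Itgax-201 stood at 1.23, 1.14 and 1.23 TPM. The median over the 4 genes was 33.9 ± 10.5%, against 47.6 ± 3.20% over 6506 expressed protein-coding genes with a retained-intron isoform (SD, n = 3 each). In the second quantification the mean share was 60.4% for Itga5, 47.4% for Itgax, 34.8% for Itgav and 34.0% for Itgb1. The share over all expressed genes was not calculated there, so this comparison was made in the gene table's isoform values only.

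**Figure D4:**
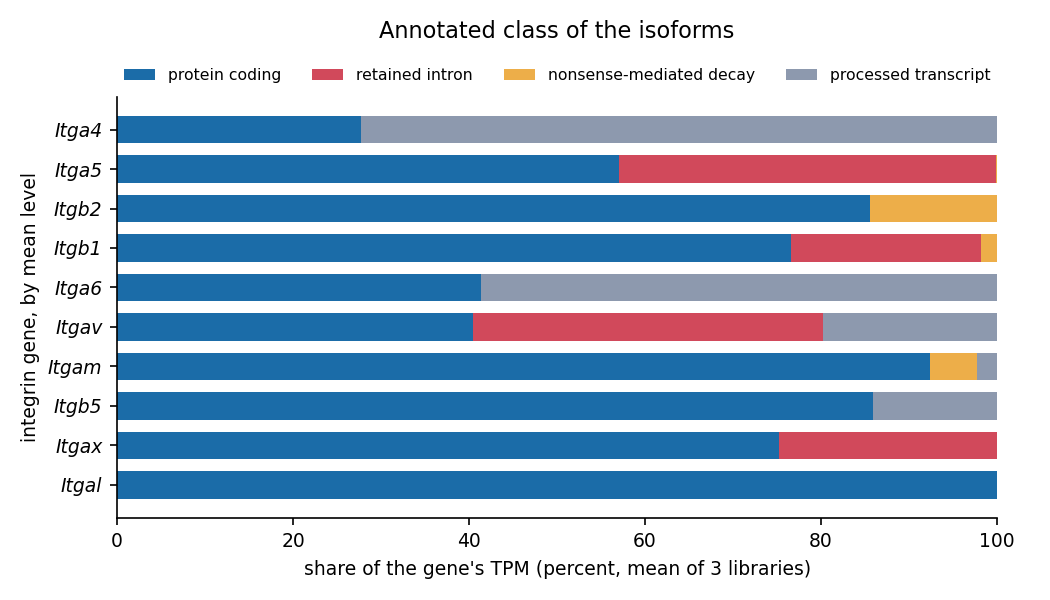
Mean share of each integrin gene's TPM on isoforms of each annotated class, in percent over the 3 libraries, with genes from highest to lowest level. Processed transcripts take 72.2% of Itga4 and 58.7% of Itga6, whereas protein-coding isoforms take 92.4% of Itgam and 85.6% of Itgb2.

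Itga6 is known for a pair of forms that differ in the cytoplasmic end of the chain, set by an alternative exon. That exon is in Itga6-201 and absent from Itga6-202. The coding ends are printed from the GENCODE M21 transcripts, with the last 20 shared bases in lower case and, in capitals, the coding bases that follow in each form, at chr2:71853534-71853638 for Itga6-201 and chr2:71855854-71856012 for Itga6-202, both on the plus strand of mm10.
Itga6-201: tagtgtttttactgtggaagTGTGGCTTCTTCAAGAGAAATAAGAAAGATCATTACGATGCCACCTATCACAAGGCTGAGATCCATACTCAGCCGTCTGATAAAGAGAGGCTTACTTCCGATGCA
Itga6-202: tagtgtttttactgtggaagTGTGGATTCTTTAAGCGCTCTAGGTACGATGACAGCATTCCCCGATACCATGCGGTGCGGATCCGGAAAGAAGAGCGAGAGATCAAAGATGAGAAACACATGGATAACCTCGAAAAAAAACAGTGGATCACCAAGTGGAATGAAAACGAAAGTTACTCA
The first 30 capital bases of these stretches are identical at 21 positions. In the second quantification Itga6-201 stood at 3.79, 2.34 and 3.84 TPM in replicates 1, 2 and 3, and Itga6-202 at 2.79, 4.33 and 4.55 TPM. Itga6-202 was the higher there in replicates 2 and 3. In the isoform values that go with the gene table, Itga6-201 stood at 4.62, 3.15 and 4.81 TPM and Itga6-202 at 0.00, 2.42 and 2.09 TPM. Itga6-201 was higher in every library of this table, so the balance of these forms was not resolved. The stretches are not exclusive as RNA: Itga6-201 also holds all 159 bases printed for Itga6-202, after the end of its own coding part, and so does the processed transcript Itga6-203. Another coding model, Itga6-207, holds the stretch of Itga6-201 and not the other. Itga6-207 stood at 3.27, 2.67 and 4.18 TPM and Itga6-203 at 5.10, 2.42 and 4.28 TPM in the gene table's isoform values.

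The main coding isoforms of Itgb5 also differ by a short stretch. Itgb5-202 holds 29 coding bases, at chr16:33947853-33947881 on the plus strand of mm10, that Itgb5-201 lacks, printed in capitals between 20 bases of flanking exon on each side.
Itgb5-202: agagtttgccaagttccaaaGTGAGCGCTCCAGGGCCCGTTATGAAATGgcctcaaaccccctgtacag
Itgb5-202 stood at 8.03, 4.81 and 7.45 TPM in replicates 1, 2 and 3, and Itgb5-201 at 0.00, 4.48 and 2.95 TPM. Itgb5-202 was the higher in each library, and by little in replicate 2. Its share of the TPM of these isoforms together was 100%, 51.1% and 71.0% in the second quantification, and 100%, 51.8% and 71.6% in the values above. Of Itgam, Itgam-203 took 52.7%, 46.2% and 53.9% of the gene's TPM and Itgam-205, which ends 97.5% of the way along the gene, took 25.01%, 51.8% and 14.9%. Itgb1-201 took 77.6%, 81.8% and 70.5% of Itgb1, and Itgb2-201 took 81.2%, 77.4% and 79.4% of Itgb2. In these values the beta chain genes of both main families thus had 1 leading isoform each. In the second quantification Itgb1-201 stood at 27.2, 15.3 and 26.1 TPM, against 20.2, 15.0 and 23.2 TPM for the retained-intron isoform Itgb1-203, a much smaller lead. Itgb2-201 stood there at 34.1, 28.1 and 33.4 TPM, against 8.24, 7.72 and 10.05 TPM for Itgb2-205. The coding isoforms of Itgal were not resolved between libraries: Itgal-202 took 86.9% in replicate 2 and 0.00% in the others, where the whole gene had 78 to 88 expected counts a library.

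In TPM most integrin genes were lowest in the same library as most other expressed genes. Replicate 2 gave the lowest TPM for 9 of the 10 genes, and for 78% of 10245 expressed protein-coding genes. The gap to the next library was small for Itgb5, at 12.45 and 12.52 TPM, Itgb2, at 28.6 and 28.9 TPM, and Itgax, at 1.5 and 1.58 TPM. Protein-coding genes held 23.9%, 16.7% and 25.3% of all TPM in replicates 1, 2 and 3, and once levels were scaled to that part, replicate 2 was lowest for 3 of the 10 genes, against 46.9% of the expressed genes. A highest value at least 2 times the lowest was found in TPM for 3 genes, Itga4, Itgax and Itgal, against 39.6% of expressed genes. After scaling to protein-coding TPM it was found for Itgax alone, at 2.47 times, against 18.8%. Itgb5, flat in TPM, differed 1.504 times between libraries on that scale, and Itga6, Itgb1 and Itgam the least, at 1.10, 1.13 and 1.17 times.

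Relative to all expressed protein-coding genes, the deviation of a library from the gene's own mean on the log2(TPM + 1) scale showed opposite patterns among the integrins. Itga4 was at 0.42, -0.38 and -0.04 in replicates 1, 2 and 3. Itga5 was at -0.23, 0.38 and -0.16, Itgb5 at -0.11, 0.36 and -0.25 and Itgb2 at -0.17, 0.29 and -0.12, so these 3 genes were highest where Itga4 was lowest. These single-gene deviations were calculated from the gene table only. Itga5 had its lowest TPM in replicate 1 there, at 30.9, 33.9 and 36.1. In the second quantification its TPM was highest in replicate 1 and lowest in replicate 2, at 88.3, 58.1 and 68.8. Itgb1 and Itga6 stayed within 0.08 of 0 in every library. The median over the 10 genes was -0.05, 0.08 and -0.08, so as a set they did not stand out in any library. With 1 group and 3 libraries no test was made of these differences.

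**Figure D5:**
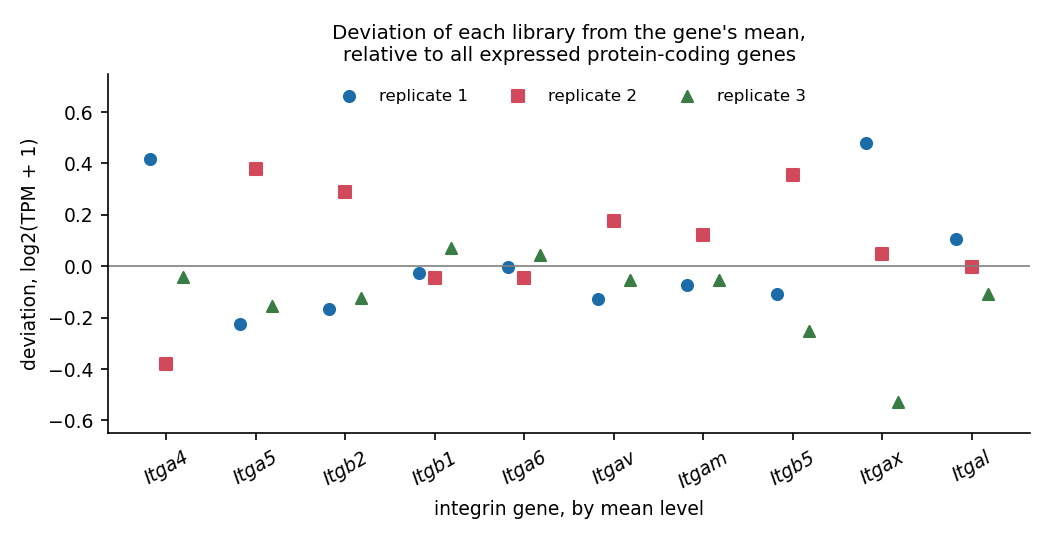
Deviation of each library from the gene's mean over the 3 libraries, on the log2(TPM + 1) scale of the gene table, minus the median deviation of expressed protein-coding genes in that library. Itga4 is highest in replicate 1 at 0.42 and lowest in replicate 2 at -0.38, whereas Itga5, Itgb5 and Itgb2 are highest in replicate 2, at 0.38, 0.36 and 0.29.

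The second quantification gave a higher mean level for each of the 10 genes. Its mean was at least 1.5 times that of the gene table for 7 of them, against 57% of expressed protein-coding genes, with a median ratio of 1.86 over the 10 genes and 1.60 over those genes. Itga4 stood at 181, 67.4 and 130 TPM there in replicates 1, 2 and 3 and was again highest in every library. Itgb5 had the largest ratio, 2.97, with 37.2 ± 7.38 TPM in the second quantification, against 12.5 ± 0.0603 TPM in the gene table, and Itga5 reached 71.7 ± 15.3 TPM, against 33.7 ± 2.63 TPM (SD, n = 3 each). Of Itgb5, 59.4% of the TPM lay on processed transcripts in that quantification, against 14.1% in the gene table's isoform values. Itgb1 stood at 64.2, 41.7 and 66.9 TPM and Itgb2 at 48.2, 38.5 and 50.4 TPM in that table, with Itgb1 higher in each library, whereas the gene table did not resolve their order over all isoforms. Itgal was at 2.32, 2.43 and 3.76 TPM there, so all 10 genes passed 1 TPM in every library, as did 53.2% of protein-coding symbols.

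In the gene table the other 16 integrin genes of the mouse had little RNA. There the 10 genes held 95.3%, 91.5% and 93.6% of the TPM of all 26 integrin genes in replicates 1, 2 and 3. Of the other 16, 2 stood at 1 TPM or more in all libraries, where 42.5% of protein-coding symbols did so. Itga9, the alpha 9 chain that pairs with beta 1, was at 6.94, 9.97 and 8.56 TPM (8.49 ± 1.52 TPM, SD, n = 3), above Itgax and Itgal in each library. Itgb3, the beta 3 chain that pairs with alpha v and, in platelets, with alpha IIb, was at 2.48, 2.88 and 3.93 TPM (3.10 ± 0.749 TPM, SD, n = 3). Itgb7, which pairs with alpha 4 in gut-homing lymphocytes, averaged 1.21 ± 0.595 TPM, the platelet gene Itga2b 0.957 ± 0.352 TPM and Itga10 0.893 ± 0.350 TPM (SD, n = 3 each). Itgb8, Itgb6, Itgb4 and Itga3, known from epithelia and other tissues, averaged under 0.05 TPM in the gene table. In the second quantification 10 of these 16 genes stood at 1 TPM or more in all libraries, against 53.2% of protein-coding symbols. Their detection thus depended on the quantification. The highest there were Itga9, Itga7 and Itgb7, which averaged 22.4, 7.41 and 5.89 TPM, with Itga7 at 0.137 TPM in the gene table. Itgb6 averaged 2.05 TPM and Itgb4 0.656 TPM in that quantification, while Itgb8 averaged 0.0748 TPM and Itga3 0.0396 TPM.

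Genes of the machinery that links integrins to actin and to kinases were largely present. Of 38 listed symbols 37 matched a gene, since Icap1 is not a symbol of this annotation, and 31 of the 37 stood at 1 TPM or more in all 3 libraries. The adaptor Fyb was highest at 347, 275 and 428 TPM (350 ± 76.6 TPM, SD, n = 3). The tyrosine kinase Syk followed at 185 ± 33.1 TPM, the actin crosslinker Flna at 183 ± 67.4 TPM, talin 1 (Tln1), which binds beta tails and activates integrins, at 138 ± 13.9 TPM, and the adaptor Skap2 at 119 ± 34.4 TPM (SD, n = 3 each). Each of these 5 averaged more than Itga4. Among related genes the gene table gave unequal levels, with Tln1 at 145, 122 and 146 TPM, against 0.06, 0.11 and 0.14 TPM for Tln2, and kindlin 3 (Fermt3) at 76.7, 83.3 and 104 TPM, against at most 0.01 TPM for Fermt1 and Fermt2. In the second quantification Tln2 averaged 2.39 TPM, Fermt2 2.97 TPM and Parva 1.99 TPM. Tln2 and Fermt2 still lay far below Tln1, at 189 TPM, and Fermt3, at 97.5 TPM, there. Of the 37 machinery genes 35 stood at 1 TPM or more in all libraries of that quantification, against 53.2% of protein-coding symbols. Fermt1, at 0.190 TPM there, and Fgr, at 0.559 TPM there, averaged under 1 TPM in both quantifications. In the gene table Parva averaged 0.01 TPM, while Parvb averaged 11.6 ± 1.499 TPM and Parvg 9.59 ± 1.82 TPM (SD, n = 3 each). Of the Src-family kinases, Lyn averaged 66.1 ± 22.02 TPM, whereas Src averaged 0.870 ± 0.459 TPM and Fgr 0.240 ± 0.287 TPM (SD, n = 3 each).

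Of 20 integrin ligand genes, 7 stood at 1 TPM or more in all libraries of the gene table, where 42.5% of protein-coding symbols did so. In the second quantification 11 of the 20 did, against 53.2% of protein-coding symbols. By mean level in the gene table the highest were Thbs1 (thrombospondin 1) at 168, 112 and 115 TPM, Spp1 (osteopontin) at 191, 57.1 and 103 TPM and Tgfb1, whose latent form alpha v integrins bind, at 82.1, 68.2 and 68.2 TPM. This order was not resolved: Spp1 was above Thbs1 in replicate 1, and in the second quantification Tgfb1 averaged 277 TPM, Spp1 215 TPM and Thbs1 203 TPM. Icam1, the ligand of the beta 2 integrins, was at 87.95, 13.5 and 25.7 TPM (42.4 ± 39.9 TPM, SD, n = 3), highest in replicate 1, and Mfge8, a bridge from dying cells to alpha v integrins, at 22.5, 22.5 and 19.4 TPM. Vcam1 and Fn1, which encode the ligands of the alpha 4 and alpha 5 chains, averaged 0.873 ± 0.521 and 0.333 ± 0.238 TPM in the gene table (SD, n = 3 each). In the second quantification Vcam1 was at 7.62, 3.19 and 7.14 TPM and Fn1 at 2.14, 1.55 and 3.63 TPM, so their low levels held in the gene table only. The fibrinogen genes Fga, Fgb and Fgg had no counts.

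The genes closest in level to Itgb2 over the 3 libraries were Adamts10, Usp24 and Map2k5, with root mean square differences of 0.0396, 0.0398 and 0.0536 on the log2(TPM + 1) scale among 21990 protein-coding genes. Those closest to Itgb1 were Zfp330, Eprs and Elp2, at 0.0136, 0.0151 and 0.0249. With 3 libraries these are genes of the same level and library pattern and nothing more.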

How the data were processed

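Chromatin RNA, depleted of ribosomal RNA, was sequenced in 3 libraries, per the labels. Each library has a deposited gene table and 2 deposited transcript tables, made on mm10 with GENCODE M21 per the text deposited with them; programs and use of strand: not given in the sources used here. Per the file headers, the gene table and 1 transcript table give expected counts (estimated counts, not whole), TPM and the percent of a gene's TPM on each isoform (IsoPct); the other transcript table gives estimated counts and TPM, called the second quantification and summed here per gene. Annotated genes held 98.2% to 99.6% of expected counts; the other 0.366% to 1.83% named no annotated gene and were left out. Where IDs share a symbol, that with the higher mean was used.

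Levels are the deposited TPM. Deviations were taken on log2(TPM + 1), a scale that shrinks the differences of low genes. Alternatives used expected counts rounded to whole numbers, with TMM factors from edgeR 4.0.16 and size factors from DESeq2 1.42.0 in R 4.3.3. Python 3.11.15 ran the rest, with numpy 2.4.6, pandas 2.3.3, scipy 1.17.1 and matplotlib 3.10.9; the steps were tested on simulated data. Poisson intervals and the floor of 3 counts reflect counting error alone: without molecular identifiers, reads may be copies of 1 molecule. Promoter sequences are from RefSeq (GRCm38.p6) and exon sequences from GENCODE M21.

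The members and lists were chosen with earlier results of these data known. Of the lists, the text names the 5 highest other integrin genes, machinery genes and ligands, machinery genes under 1 TPM in the mean, and the 3 genes nearest Itgb2 and Itgb1. Itga7, Itgad, Itga3, Itgb4, Itgb6, Itgb8, Fermt3, Parvb, Parvg, Lyn, Vcam1, Fn1, Fga, Fgb, Fgg and the markers named were chosen after their values were seen. No test between groups was possible with 1 group.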

Additional observations from a re-analysis of the deposited data

How the results depend on the processing

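No paired analysis was possible because the series holds 1 group. The median level of the 10 genes was 33.4 TPM in the second quantification, 92.7 when scaled to protein-coding TPM, 25.6 per kb with TMM or DESeq2 factors and, in an alternative chosen after seeing the data, 12.3 TPM over coding isoforms, against 20.3 TPM in the gene table. The second quantification put the alpha chains of the beta 2 family at 0.767 and Itgb1 at 1.25 per Itgb2, against 0.615 and 0.892 in the gene table. The number of other integrin genes detected in all libraries was 10 in the second quantification, 8 when scaled to protein-coding TPM, 12 at a limit of 3 expected counts, 1 at 5 TPM and 2 to 5 with 1 replicate left out (5 without replicate 1), against 2 in the gene table. The deviation of the set in replicate 2 was 0.18 in the second quantification and -0.062 with no limit on the mean, against 0.08; in replicate 3 it was -0.10 to 0.017 with 1 library left out, against -0.08. Of 92 recalculated set-level values 15 moved beyond the spread between libraries, or beyond 1.5 times for counts; the cause was not tested. The other 77 are no measure of stability, since some could not move: ratios within a library and rank orders under another scaling of that library, and the retained-intron median, which is 0 because 4 of the 10 genes have such an isoform. Depth limits Itgax and Itgal, which rest on 76 to 146 and 78 to 88 expected counts.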
